A study of Mus musculus with 28 samples.

Results

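Cell division genes were followed through the 19 RNA-seq libraries of a study of the transcriptional co-activator Yap in the alveolar epithelium of the young mouse lung. The set held 35 genes, taken by name from the 23478 gene rows of the deposited count tables, and was divided by function into 11 genes of DNA replication and 24 genes of mitosis. All 35 passed the low-count filter of every comparison. Yap active cells came from Stk3 flox/flox, Stk4 flox/flox mice carrying SftpcCreert2, an inducible Cre under the promoter of the surfactant gene Sftpc, which is used in alveolar type 2 (AT2) cells (6 RNA libraries). Yap active controls carried the same floxed alleles without the Cre (4 RNA libraries). Yap deleted cells were Yap flox/flox with SftpcCreert2 (5 RNA libraries), and Yap deleted controls were Yap flox/flox without it (4 RNA libraries). Alleles were recombined at postnatal day 3, and EPCAM+ lung cells, depleted of CD45, CD16/32, Ter119, CD90.2, CD271 and CD31 carriers, were taken at postnatal day 14. ATAC-seq, which maps open chromatin, was run on 3 Yap active, 3 Yap active control, 2 Yap deleted and 1 Yap deleted control samples. No label ties a library to an individual mouse, and p-values therefore measure the spread between these samples, which may be partly technical.

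Replication genes act in late G1 and S phase. The MCM proteins form the ring-shaped helicase that opens DNA, Pcna is the clamp that holds polymerases on the template, Rrm2 and Tyms supply deoxynucleotides, and the E cyclins drive entry into S phase. Mitotic genes act later: cyclin B with Cdk1 starts mitosis, Aurora and Polo-like kinases build and police the spindle, and kinesins move chromosomes and complete division. Transcription of the replication genes is classically placed under E2F factors, and that of the mitotic genes under the CHR element bound by the DREAM and MuvB complexes together with CCAAT boxes bound by NF-Y. Stk3 and Stk4 encode Hippo pathway kinases that restrain Yap, which binds DNA through TEAD factors and is known as a promoter of epithelial growth. Newborn AT2 cells still divide as the alveoli form.

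Libraries held 31.9 M to 43.5 M counts. Levels are given as CPM, the counts scaled to a common library size with TMM factors over all 19 libraries, and are compared between libraries of the same gene only. AT2 markers were high in every library, with 10 markers summing to 48608 to 160381 CPM in Yap active cells, 53277 to 157130 CPM in their controls, 51373 to 91953 CPM in Yap deleted cells and 32128 to 107048 CPM in their controls. RNA of club and fibroblast lists was present in every library too, so the pools were not AT2 cells alone. RNA of the macrophage list was also present in each. Its sum was highest in Yap active 6 (7324 CPM) and Yap deleted control 4 (6068 CPM), which also had the highest AT2 sums of their lines. Whether that sum reflects macrophages was not tested. Esr1, whose row may collect reads of the receptor part of the Cre, measured 214 to 332 CPM in numbers 2 to 6 of the Yap active group and 236 to 522 CPM in all 5 of the Yap deleted group, but 2.03 CPM in the library labelled Yap active 1. It also ran against the label in Yap active control 2 (166 CPM) and Yap deleted control 2 (85.4 CPM), beside 0.938 to 3.90 CPM for the remaining controls. Stk3 lay at 51.0 CPM in the library labelled Yap active 1 and at 31.5 to 35.9 CPM in libraries 2 to 6, against 54.9, 52.1, 56.6 and 34.2 CPM in their controls 1 to 4. Control 4 thus held as little Stk3 as the Yap active libraries, with a Stk4 level of 121 CPM beside 106 to 116 CPM in controls 1 to 3. Yap1 lay at 77.0, 136, 101, 82.1 and 92.8 CPM in Yap deleted libraries, against 210, 116, 167 and 184 CPM in their controls, of which control 2 was the lowest. A floxed exon is only a portion of the counted gene. All libraries stayed in their labelled groups, and results are also given without those that ran against their labels. Several members share sequence or place with other genes, and whether counting used strand is not stated, so their levels are less certain. Pcna, Tyms, Ccnb1 and Ccnb2 have pseudogenes. Other genes overlap Ccna2, Aurka, Mcm7, Kif20a, Mxd3, Ccne2, Hjurp, Top2a, Kif11 and Tpx2.

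CHR elements were found mainly in the mitotic promoters and E2F sites mainly in the MCM promoters. RefSeq promoters (build GRCm38.p6, 250 bases before to 50 after the start) were found for 28 of the 35 genes, 9 of replication and 19 of mitosis. The stretches below lie before the annotated gene, at most 150 bases long, 5′ to 3′ on the strand of the gene. They were chosen to show each element and the promoters of Ccnb1, Cenpe and Mcm5, which overlapped opened chromatin. The Hjurp promoter, which also overlapped it, is not printed. Capitals mark CHR elements, which were searched as TTTGAA and also in the spelling TTCGAA, boxes with the letters CCAAT, and E2F sites, which were searched as TTTCCCGC, as TTTGGCGC, as TTTCGCGC and as TTTGCCGC, each read on both strands.
Cdk1 (chr10:69352913-69353062, minus strand): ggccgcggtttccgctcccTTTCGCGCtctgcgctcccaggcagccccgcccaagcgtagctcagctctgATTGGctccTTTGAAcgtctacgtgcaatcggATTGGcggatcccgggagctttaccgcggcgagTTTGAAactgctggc
Top2a (chr11:99024200-99024339, minus strand): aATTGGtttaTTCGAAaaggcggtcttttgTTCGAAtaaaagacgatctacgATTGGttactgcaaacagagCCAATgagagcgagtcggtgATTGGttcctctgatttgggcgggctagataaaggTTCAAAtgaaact
Mki67 (chr7:135716451-135716529, minus strand): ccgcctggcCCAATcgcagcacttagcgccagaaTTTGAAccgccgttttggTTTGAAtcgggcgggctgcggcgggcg
Ccnb1 (chr13:100786487-100786636, minus strand): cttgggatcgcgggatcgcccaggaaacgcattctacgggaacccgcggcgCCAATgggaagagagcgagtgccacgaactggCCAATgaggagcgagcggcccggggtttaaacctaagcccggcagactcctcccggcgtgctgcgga
Cenpe (chr3:135212413-135212562, plus strand): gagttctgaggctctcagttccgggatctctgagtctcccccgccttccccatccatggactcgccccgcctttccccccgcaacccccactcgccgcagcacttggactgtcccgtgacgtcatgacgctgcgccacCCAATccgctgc
Mcm6 (chr1:128359706-128359855, minus strand): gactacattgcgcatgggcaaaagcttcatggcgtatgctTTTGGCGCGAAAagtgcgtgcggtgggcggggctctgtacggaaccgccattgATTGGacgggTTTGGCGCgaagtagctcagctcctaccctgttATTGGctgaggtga
Mcm5 (chr8:75109359-75109467, plus strand): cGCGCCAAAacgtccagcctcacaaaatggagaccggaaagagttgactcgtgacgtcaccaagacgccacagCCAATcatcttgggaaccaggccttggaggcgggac

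Cdk1 carried all 3 kinds of element, and Mki67 a pair of CHR elements beside a CCAAT box. Top2a held CHR elements in both spellings among 4 CCAAT boxes, where TTCGAA reads the same on both strands. Mcm6 held E2F sites, a pair of which overlapped on opposite strands, and Mcm5 an E2F site with a CCAAT box. Over the whole window a CHR element was found in 2 of 9 replication and 14 of 19 mitotic promoters, against 21.7% of all 27025 genes with a promoter. CCAAT boxes were found in 7 of 9 replication and 15 of 19 mitotic promoters, against 41.1% of all genes. E2F sites were found in 4 of 9 replication promoters (Mcm3, Mcm5, Mcm6 and Mcm7) and in 1 of 19 mitotic ones (Cdk1), against 704 of the 27025. The TEAD letters GGAATG were found in 1 of 9 and 1 of 19 (Mcm3 and Ube2c), against 16.6% of all genes. With the 250 bases before the start alone, CHR elements remained in 8 of the 19 mitotic promoters, against 19.6% of all genes. A match is a string of letters and not a measured site, and the counts were not tested.

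**Figure D1:**
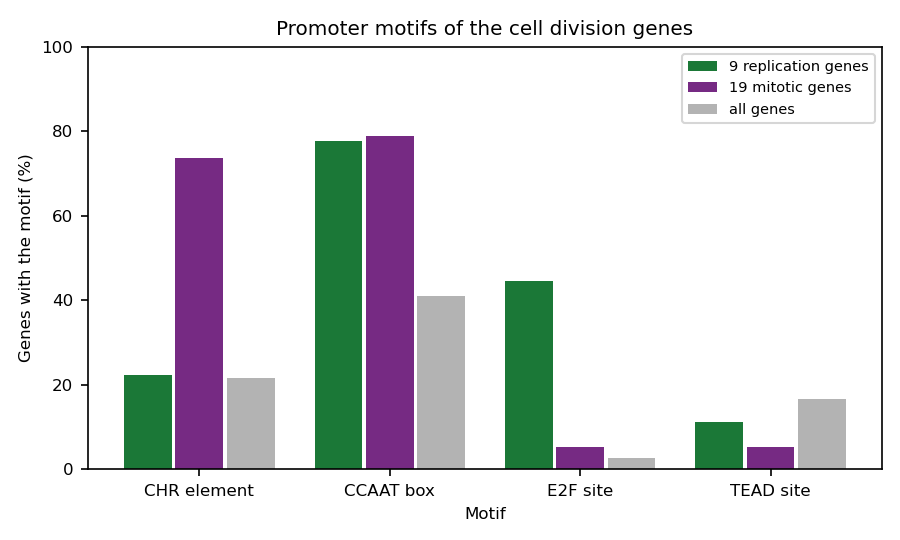
Percentage of genes whose promoter holds each motif, for 9 replication genes, 19 mitotic genes and all 27025 genes with a promoter. CHR elements were most frequent in mitotic promoters (73.7%) and E2F sites in replication promoters (44.4%).

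Libraries of the same group differed widely in the level of the division genes. The pooled SD between libraries of a group, in log2 units of the class level, was 0.71 for replication and 1.15 for mitotic genes in the Yap active line, and 0.41 and 1.14 in the Yap deleted line. Across the 19 libraries the highest level of a replication gene was 3.28 to 20.7 times its lowest (median 8.22), and that of a mitotic gene 3.38 to 171 times (median 33.1). Library Yap active 6 was the highest of all 19 for 10 of 11 replication and 20 of 24 mitotic genes. The lowest library was most often Yap active control 2 for replication genes (6 of 11) and Yap deleted 5 for mitotic genes (11 of 24). In bulk samples, a larger share of dividing cells and more of these RNAs per cell cannot be told apart.

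**Figure D2:**
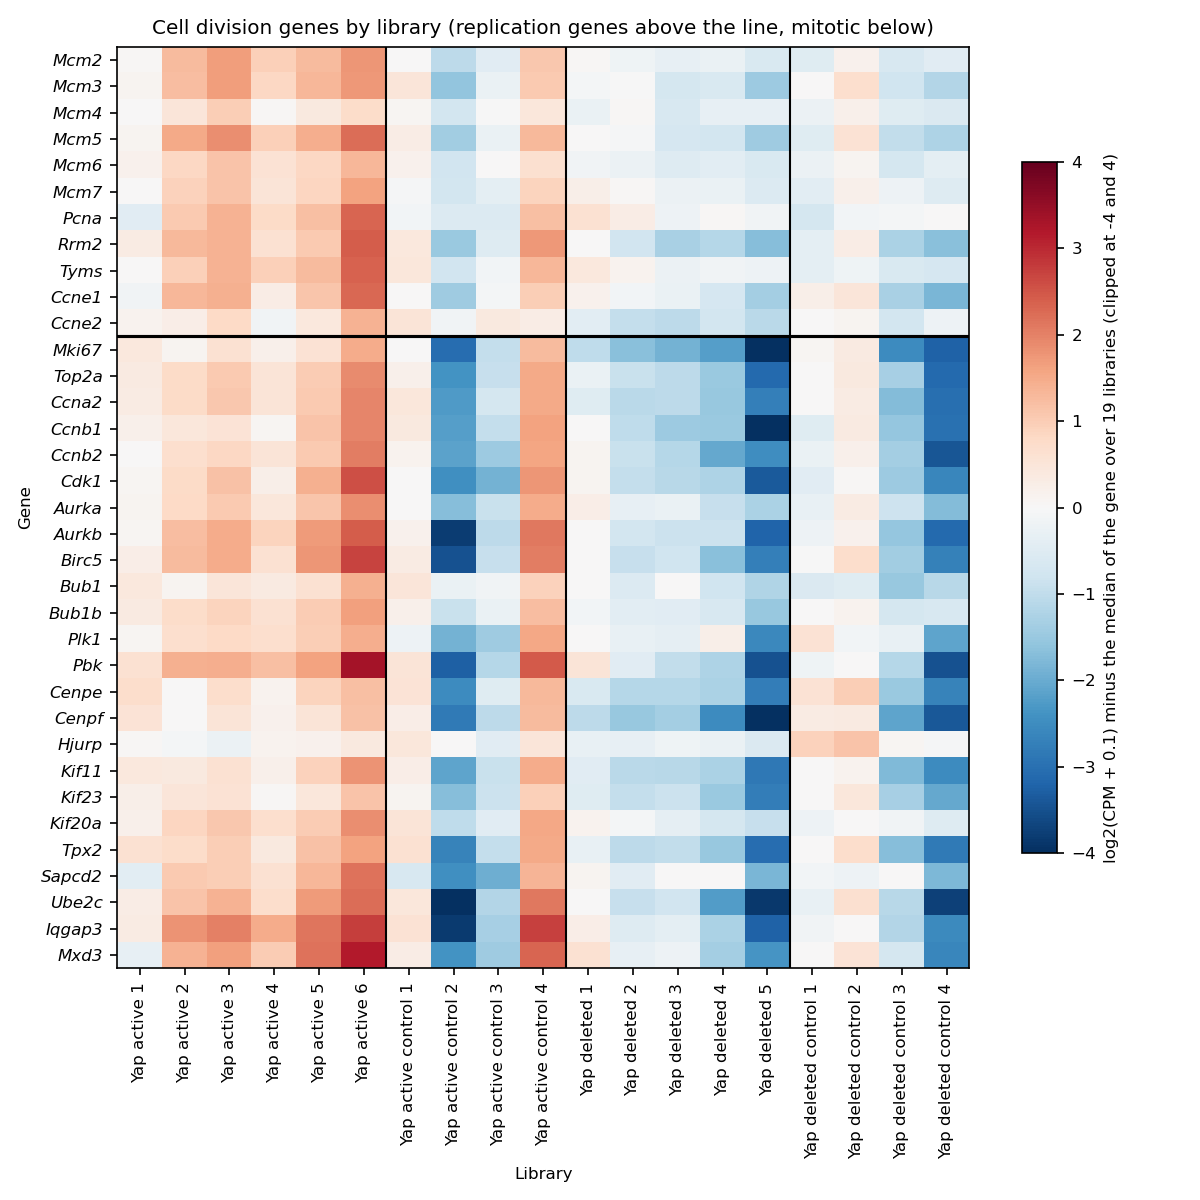
Level of each of the 35 genes (rows) in each of the 19 libraries (columns), as log2(CPM + 0.1) minus the median of the gene over the libraries, clipped at −4 and 4, with red for higher and blue for lower. Replication genes stand above the line and mitotic genes below it. The column of Yap active 6 is red from top to bottom, and Yap active control 4 is redder in the mitotic rows than in the replication rows.

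Summed over the 11 replication genes, Yap active libraries 1 to 6 held 212, 445, 568, 345, 451 and 786 CPM, against 234, 117, 177 and 437 CPM in their controls 1 to 4. Libraries 2 to 6 lay above controls 1 to 3, library 1 lay among them, and control 4 lay among libraries 2 to 6. Summed over the 24 mitotic genes, the same Yap active libraries held 377, 446, 556, 402, 593 and 1055 CPM, against 340, 60.2, 156 and 850 CPM in their controls. Control 4 exceeded all but 1 Yap active library, and the groups overlapped in both classes. Mean levels were 468 ± 196 CPM in Yap active cells and 241 ± 139 CPM in controls for replication genes (SD, n = 6 and 4). For mitotic genes they were 572 ± 252 CPM in Yap active cells and 351 ± 352 CPM in controls. The AT2 marker sum was 48608, 106183, 98804, 130922, 121138 and 160381 CPM in Yap active libraries 1 to 6. In controls 1 to 4 it was 53277, 75770, 62562 and 157130 CPM. Among Yap active 1 and controls 1 to 3, the order of the mitotic sums was the reverse of that of the AT2 sums. Yap active 6 and control 4 were the highest of the 10 for AT2 markers and for the mitotic sum, and the part of the AT2 level in the division genes was not tested.

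In the other line, replication genes summed to 237, 212, 156, 173 and 143 CPM in Yap deleted libraries 1 to 5, against 164, 245, 151 and 152 CPM in their controls 1 to 4. Mitotic genes summed to 227, 146, 142, 109 and 39.1 CPM in Yap deleted libraries, against 305, 373, 105 and 52.5 CPM in their controls. Controls 1 and 2 lay above all Yap deleted libraries for the mitotic sum. Controls 3 and 4 lay within the range of those libraries, and the groups overlapped. Controls 1 and 2 also had the lowest AT2 marker sums of this line, 34676 and 32128 CPM. The highest, 107048 CPM, was that of control 4, and the part of the AT2 level was not tested. Means were 184 ± 39.3 CPM in Yap deleted cells and 178 ± 45.1 CPM in controls for replication genes, and 133 ± 68.0 CPM and 209 ± 154 CPM in the same order for mitotic genes (SD, n = 5 and 4).

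**Figure D3:**
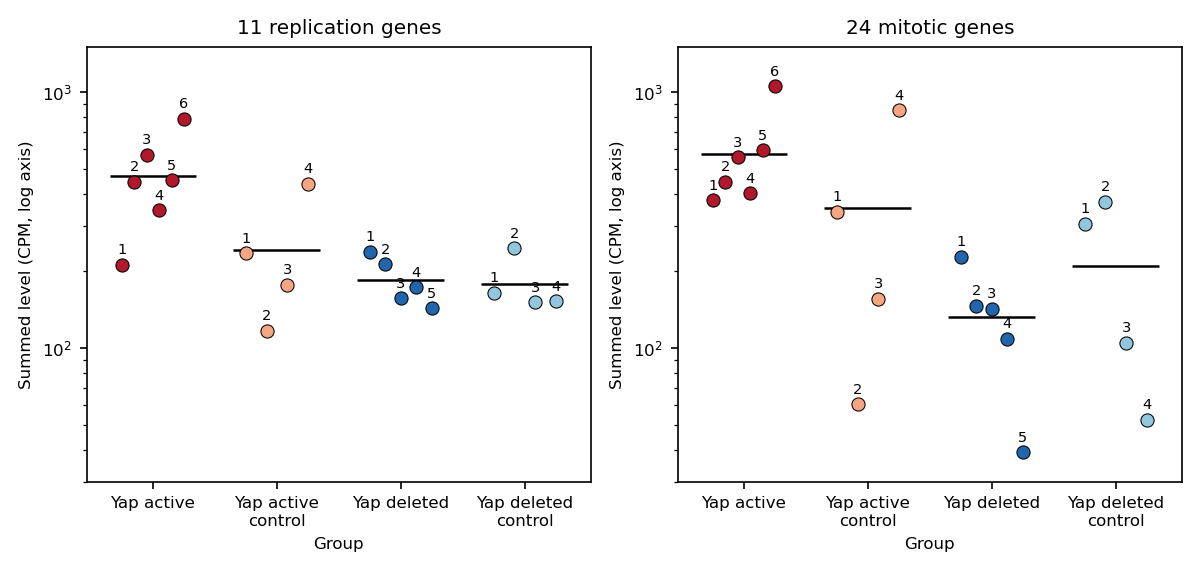
Summed CPM of the 11 replication genes (left) and the 24 mitotic genes (right) in each RNA library, on a log axis, with points numbered by replicate and bars at the group means. Yap active libraries 2 to 6 stand above controls 1 to 3 in both panels, with control 4 among them, and the Yap deleted controls span 52.5 to 373 CPM for mitotic genes.

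The classes did not keep a fixed proportion. The ratio of the mitotic to the replication sum was 1.78, 1.0, 0.980, 1.17, 1.31 and 1.34 in Yap active libraries 1 to 6, against 1.45, 0.516, 0.880 and 1.94 in controls 1 to 4. In Yap deleted libraries it was 0.957, 0.687, 0.911, 0.629 and 0.273, against 1.86, 1.52, 0.695 and 0.346 in controls 1 to 4. Group ranges overlapped in both lines, and Yap active libraries 2 to 6 lay between 0.980 and 1.34. The size of the ratio depends on gene lengths, so it serves to compare libraries only. Mki67 made up a large part of the mitotic sum, and without it the ratio still ran from 0.236 to 1.43 over the 19 libraries. Control 4 of the Yap active line was first or second of its table's 10 libraries for 24 of 24 mitotic genes but for 1 of 11 replication genes, where its median rank was 5.

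**Figure D4:**
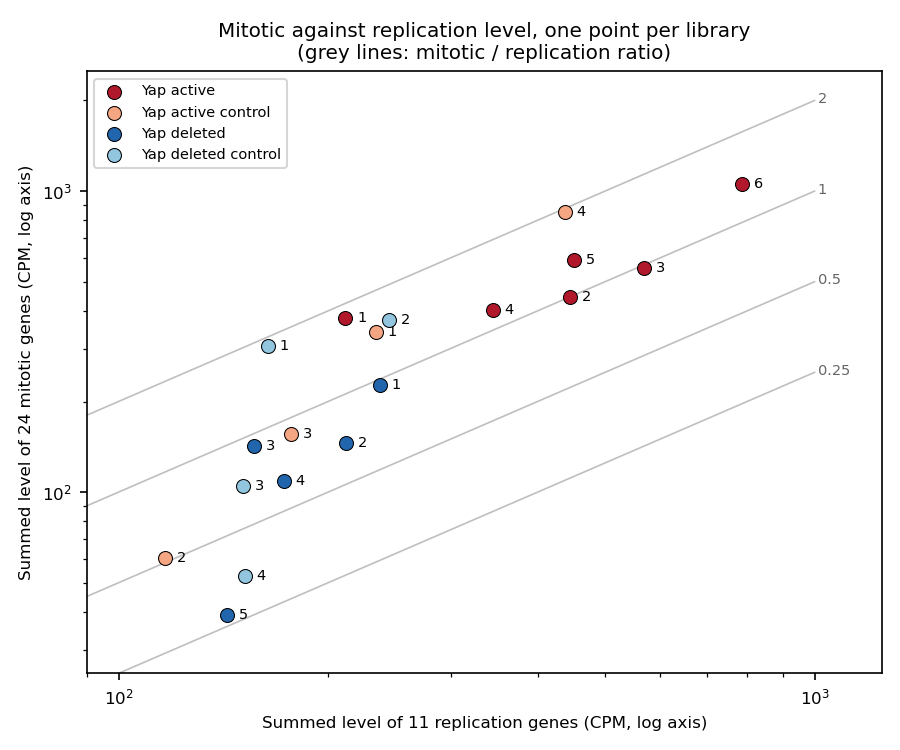
Summed mitotic against summed replication CPM, 1 point per library, on log axes, with grey lines of equal ratio. Yap active control 4 and Yap deleted control 1 lie nearest the line of ratio 2, and Yap deleted 5 nearest that of 0.25.

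Loss of Stk3 and Stk4 asks how division genes stand when Yap is released from Hippo restraint. All 11 replication genes were higher in Yap active cells, with a median log2 fold change of 0.90, beside −0.01 over all 15685 genes tested, of which 49.4% were higher. Of the mitotic genes 23 of 24 were higher, with a median of 0.70. None of the 35 passed the test (edgeR quasi-likelihood test, Benjamini-Hochberg adjusted p under 0.05), and 0% of all genes did. At an unadjusted p under 0.05 stood 5 of the 35 members (14.3%), all MCM genes, against 12.6% of all genes. DESeq2 called none of the 35 either, and 0.115% of all genes. With limma-voom and library quality weights 31 of the 35 were called, beside 56.4% of all genes, with the lowest weights on Yap active 1 and control 4. Its medians were 1.46 for replication and 1.55 for mitotic genes. Library levels did not separate the groups for any member, beside 0.931% of all genes for which they did.

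Among the helicase subunits, Mcm2 lay at 30.6, 70.8 and 99.9 CPM in Yap active cells (lowest, median and highest of 6, as for all genes below), against 29.5, 14.3, 21.5 and 61.7 CPM in controls 1 to 4. Its log2 fold change was 1.16 ± 0.43 SE, with adjusted p = 0.366. In 4 of 6 Yap active libraries it lay above the highest control, which was control 4. Mcm5 lay at 18.8, 48.5 and 82 CPM in Yap active cells, against 21.3, 6.58, 14.5 and 42.3 CPM in controls (log2 fold change 1.22 ± 0.51 SE, adjusted p = 0.366). Mcm6 lay at 38.3, 60.5 and 85.4 CPM in Yap active cells, against 38.3, 19.8, 34 and 52.7 CPM in controls (log2 fold change 0.79 ± 0.28 SE). Control 4 was again the highest control and control 2 the lowest library of this line for both genes. Mcm7 lay at 15.4, 28.6 and 47.3 CPM in Yap active cells, against 15, 9.3, 11.8 and 28.5 CPM in controls (log2 fold change 0.87 ± 0.37 SE). Mcm3 (1.05 ± 0.47 SE) belonged with these genes in reaching an unadjusted p under 0.05, while Mcm4 (0.49 ± 0.25 SE) did not.

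The clamp gene Pcna lay at 36.7, 110 and 252 CPM in Yap active cells, against 46.4, 34.1, 34.3 and 115 CPM in controls (log2 fold change 1.08 ± 0.51 SE, adjusted p = 0.366). Control 4 stood apart from the other controls, which lay between 34.1 and 46.4 CPM. Rrm2, the small subunit of ribonucleotide reductase, lay at 14.4, 26.2 and 62 CPM in Yap active cells, against 15.5, 4.03, 8.03 and 38.7 CPM in controls (log2 fold change 0.83 ± 0.60 SE). Tyms, thymidylate synthase, lay at 6.39, 14 and 33.3 CPM in Yap active cells, against 8.71, 3.75, 5.97 and 16.3 CPM in controls (log2 fold change 0.90 ± 0.48 SE). In both genes library 6 was the highest by far and control 4 overlapped the Yap active range. Ccne1, cyclin E1, lay at 1.92, 5.14 and 11 CPM in Yap active cells, against 2.14, 0.734, 2.03 and 4.34 CPM in controls (log2 fold change 1.19 ± 0.55 SE). Its paralogue Ccne2 lay at 1.47, 2.1 and 4.39 CPM in Yap active cells, against 2.39, 1.47, 2.15 and 2.02 CPM in controls, and had the smallest fold change of the class (0.30 ± 0.32 SE).

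Mitotic genes had fold changes of similar size but wider errors, with standard errors of 0.23 to 0.93 beside 0.25 to 0.60 for replication genes. The proliferation antigen Mki67, which coats mitotic chromosomes, lay at 101, 132 and 264 CPM in Yap active cells, against 93.3, 11.3, 48.2 and 225 CPM in controls (log2 fold change 0.63 ± 0.62 SE, adjusted p = 0.545). Top2a, the topoisomerase that untangles sister DNA, lay at 42, 61.1 and 121 CPM in Yap active cells, against 38.2, 6.15, 17.3 and 93.3 CPM in controls (log2 fold change 0.78 ± 0.61 SE). For each of them control 4 was second only to library 6 among the 10 libraries, and control 2 was last. Ccnb1, cyclin B1, lay at 3.81, 5.19 and 14.3 CPM in Yap active cells, against 4.74, 0.707, 1.84 and 11.2 CPM in controls (log2 fold change 0.55 ± 0.66 SE). Its kinase Cdk1 lay at 9.72, 18.4 and 55.4 CPM in Yap active cells, against 9.25, 1.6, 2.41 and 31.8 CPM in controls (log2 fold change 1.02 ± 0.81 SE). Cdk1 in library 6 was 34.5 times its level in control 2, the lowest of the 10. The other cyclins of this group, Ccna2 (0.72 ± 0.60 SE) and Ccnb2 (0.78 ± 0.67 SE), were also higher without passing the test.

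The mitotic genes with the smallest p were Sapcd2, Bub1b and Aurka, of which Sapcd2 may have been picked from earlier results of these data. Sapcd2, which takes part in orienting the spindle, lay at 3.66, 10.1 and 22.9 CPM in Yap active cells, against 3.15, 0.816, 1.19 and 12.8 CPM in controls (log2 fold change 1.31 ± 0.76 SE, adjusted p = 0.372). Bub1b, the checkpoint protein BubR1, lay at 13, 17.8 and 31.4 CPM in Yap active cells, against 11.6, 5.44, 8.46 and 23.7 CPM in controls (log2 fold change 0.65 ± 0.39 SE). Aurka, the kinase of spindle poles, lay at 7.75, 13.7 and 26.4 CPM in Yap active cells, against 7.2, 2.12, 3.82 and 20.4 CPM in controls (log2 fold change 0.79 ± 0.58 SE). In all 3 genes 1 Yap active library lay above control 4. By role, the kinases and their partners (Aurka, Aurkb, Birc5, Plk1 and Pbk) had a median log2 fold change of 0.89, the motors and spindle proteins (Kif11, Kif23, Kif20a, Tpx2 and Sapcd2) 0.60, and the checkpoint and ubiquitin genes (Bub1, Bub1b and Ube2c) 0.65. The division-linked genes Iqgap3, a scaffold protein, and Mxd3, a Max-binding repressor, had 0.83 and 1.13. The kinetochore and centromere genes had the lowest median of these roles, 0.40, with Cenpe at 0.40 ± 0.56 SE, Cenpf at 0.44 ± 0.59 SE and Hjurp at −0.07 ± 0.23 SE. Hjurp, the chaperone that loads the centromeric histone Cenpa, was the only member not higher, at 2.98, 3.8 and 4.68 CPM in Yap active cells and 4.92, 3.54, 2.56 and 4.95 CPM in controls.

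**Figure D5:**
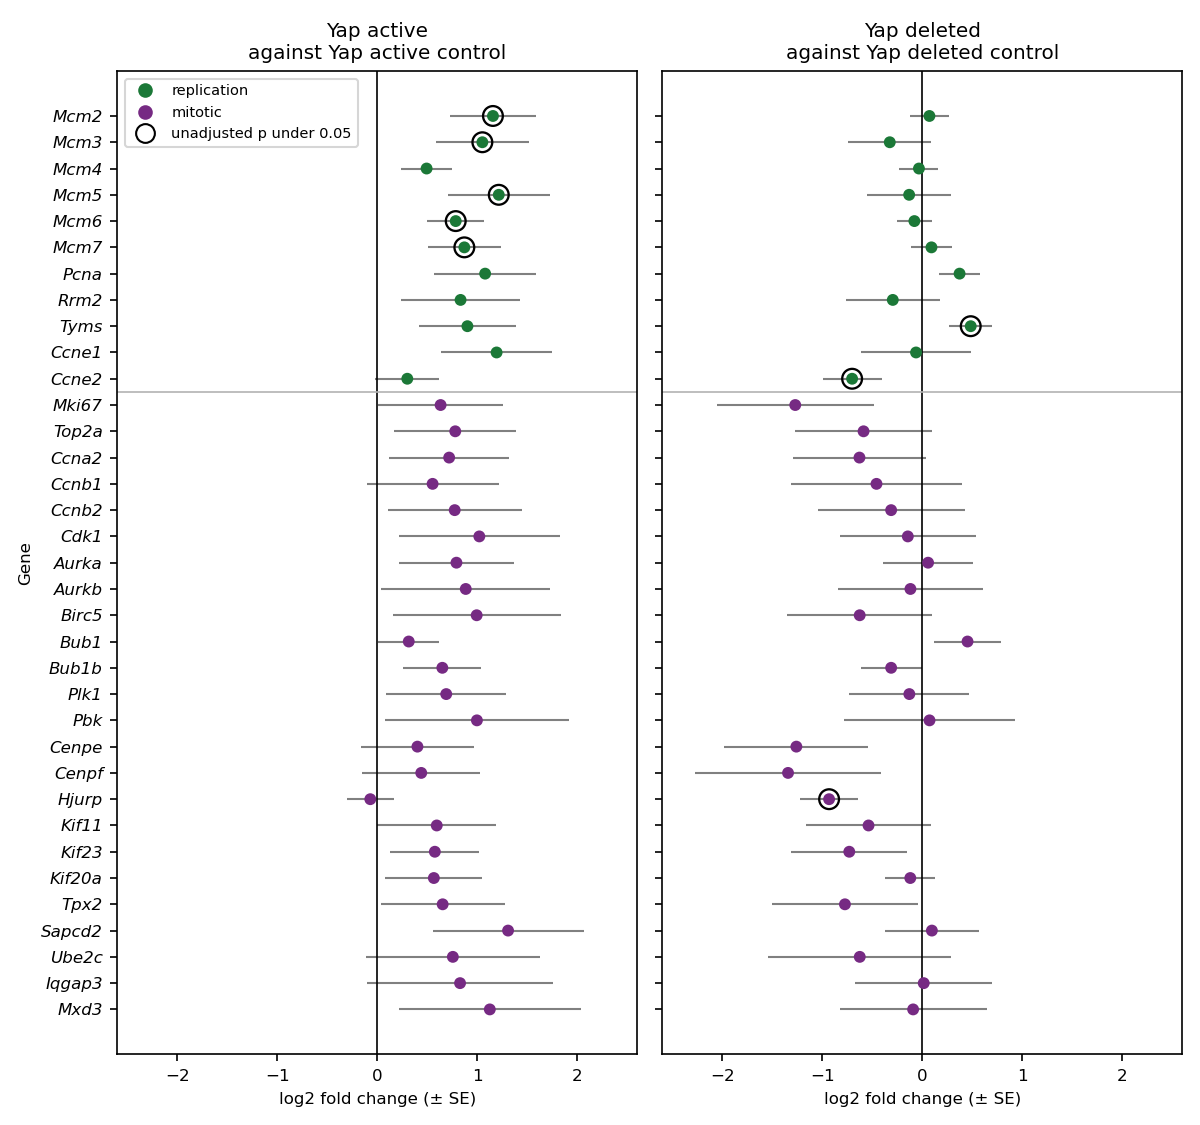
Log2 fold change of each gene with its standard error, Yap active against its controls (left) and Yap deleted against its controls (right), replication genes in green above mitotic genes in purple. Rings mark an unadjusted p under 0.05, which 5 MCM genes had in the left panel and Tyms, Ccne2 and Hjurp in the right, and no gene passed after adjustment.

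Leaving libraries out moved these values, whether or not they ran against their labels. Without Yap active 1 and control 2 together, the replication median was 0.81 and the mitotic median 0.48. Without control 4, whose mitotic level was the highest of the controls, the medians were 1.52 and 1.64. Without control 2, they were 0.68 and 0.36. Control 3 and Yap active 6 did not run against their labels. The medians were 0.75 and 0.46 without control 3, and 0.69 and 0.45 without Yap active 6. No member was called in any of these fits. Mcm2 had a log2 fold change of 1.07 without Yap active 1 and control 2 and 1.73 without control 4, and Mki67 0.31 and 1.55. In the deposited table the columns of Yap active 2 to 6 and control 4 come first, followed by those of controls 1 and 2, Yap active 1 and control 3. With that position as a covariate, the replication median was 0.25 and the mitotic median 0.16, and position cannot be told apart from group for most libraries. Without Yap active 1 and control 2, the same covariate gave a mitotic median of −0.41 and a replication median of 0.33. Summed markers of other cells overlapped between these groups: 10 endothelial markers summed to 203 to 244 CPM in Yap active cells and 194 to 429 CPM in controls, and 9 macrophage markers to 1630 to 7324 CPM and 1801 to 4187 CPM in the same order. Gene by gene, however, endothelial markers were lower with Yap active in 8 of 9 tested cases (median log2 fold change −1.68). Mesothelial markers were lower in 4 of 5 (median −1.18) and macrophage markers in 5 of 9 (median −0.13). Markers of club and goblet cells were higher in 7 of 7 cases (median 0.96), and fibroblast and mural markers lower in 9 of 9 (median −0.68). None of these markers was called. Their part in the division genes was not tested.

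Deletion of Yap asks the converse question. Replication genes were near their controls, with 4 of 11 higher and a median log2 fold change of −0.06, beside 0.01 over all 15818 genes tested. Mitotic genes were lower in 19 of 24 cases, with a median of −0.38. None of the 35 passed the test, against 0.00632% of all genes, and 3 of 35 (8.57%) had an unadjusted p under 0.05, against 15.3% of all genes. Groups did not overlap for 1 member, Hjurp, beside 3.7% of all genes.

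Tyms lay at 8.66, 7.02, 5.41, 5.77 and 5.5 CPM in Yap deleted libraries 1 to 5, against 4.88, 5.64, 4.15 and 4 CPM in their controls 1 to 4. Its log2 fold change was 0.49 ± 0.21 SE (adjusted p = 0.325), and 3 Yap deleted libraries lay above the highest control. Ccne2 lay at 1.18, 0.785, 0.73, 0.945 and 0.726 CPM in Yap deleted libraries, against 1.63, 1.77, 0.932 and 1.41 CPM in controls (log2 fold change −0.70 ± 0.30 SE, adjusted p = 0.316). Below the lowest control lay 3 Yap deleted libraries. The cyclin Ccne1 lay at 2.42, 1.97, 1.76, 1.32 and 0.782 CPM in Yap deleted libraries, against 2.56, 3.03, 0.819 and 0.531 CPM in controls (log2 fold change −0.06 ± 0.55 SE), with the groups intermixed. Pcna lay at 76.8, 61.6, 44, 52.5 and 45.5 CPM in Yap deleted libraries, against 30.7, 46.2, 47.9 and 50.3 CPM in controls (log2 fold change 0.37 ± 0.20 SE). Library 1 was the highest and control 1 the lowest. Rrm2 lay at 11.6, 6.82, 4.66, 5.2 and 3.46 CPM in Yap deleted libraries, against 8.72, 14.3, 4.8 and 3.53 CPM in controls (log2 fold change −0.29 ± 0.47 SE).

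The helicase genes spanned −0.32 (Mcm3) to 0.09 (Mcm7) on the log2 scale. Mcm2 lay at 30.5, 26.1, 23.3, 24.3 and 19.4 CPM in Yap deleted libraries, against 21.2, 33, 19 and 21.7 CPM in controls. Mcm5 lay at 17.2, 16.6, 10.8, 10.2 and 6.37 CPM in Yap deleted libraries, against 12.2, 25.8, 8.7 and 7.32 CPM in controls. Control 2 was the highest library for both, and the rest were intermixed. Mcm6 lay at 30.6, 28.8, 24, 25.6 and 22.4 CPM in Yap deleted libraries, against 28.8, 36.8, 20.9 and 25.7 CPM in controls. Mcm7 lay at 18.2, 15.7, 12.9, 12.9 and 10.4 CPM in Yap deleted libraries, against 11.5, 17.7, 13.2 and 10.8 CPM in controls. Over the 9 libraries the highest level was 1.73 (Mcm2), 4.06 (Mcm5), 1.76 (Mcm6) and 1.74 (Mcm7) times the lowest, beside 7.01, 12.5, 4.31 and 5.09 times over the 10 libraries of the Yap active line.

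Among mitotic genes, Hjurp lay at 2.88, 2.81, 3.15, 2.94 and 2.32 CPM in Yap deleted libraries, against 6.74, 7.83, 3.7 and 3.41 CPM in controls. Every Yap deleted library was below every control (log2 fold change −0.93 ± 0.29 SE, unadjusted p = 0.0101, adjusted p = 0.248). DESeq2 called it at an adjusted p of 0.0344, 1 of 35 members beside 5.01% of all genes, and no other member was called by any alternative for this line. Without controls 1 and 2 its log2 fold change was −0.34, and Hjurp overlaps another gene, Mroh2a, in the annotation. Hjurp, too, may have been picked from earlier results of these data. Cenpe, the kinetochore motor, lay at 3.96, 2.67, 2.67, 2.44 and 0.81 CPM in Yap deleted libraries, against 9.17, 12, 2.09 and 0.875 CPM in controls (log2 fold change −1.26 ± 0.72 SE). Mki67 lay at 46.2, 29.2, 25.3, 20.0 and 5.39 CPM in Yap deleted libraries, against 99, 120, 16.3 and 9.79 CPM in controls (log2 fold change −1.27 ± 0.78 SE, adjusted p = 0.448). In both, controls 1 and 2 were above all Yap deleted libraries and controls 3 and 4 within their range.

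Top2a lay at 27.5, 17.8, 15.7, 11.7 and 3.74 CPM in Yap deleted libraries, against 32.8, 42.8, 13 and 3.69 CPM in controls (log2 fold change −0.59 ± 0.69 SE). Ccnb1 lay at 3.62, 1.75, 1.26, 1.24 and 0.112 CPM in Yap deleted libraries, against 2.59, 4.69, 1.19 and 0.375 CPM in controls (log2 fold change −0.46 ± 0.86 SE). Cdk1 lay at 10.03, 4.76, 4.23, 3.88 and 0.81 CPM in Yap deleted libraries, against 6.8, 9.52, 3.33 and 1.44 CPM in controls (log2 fold change −0.14 ± 0.68 SE). Yap deleted 5 was lowest or second lowest of the 9 for each, and control 4 was beside it. Aurka lay at 8.68, 5.77, 5.97, 3.78 and 2.96 CPM in Yap deleted libraries, against 5.78, 9.15, 3.98 and 2.09 CPM in controls (log2 fold change 0.06 ± 0.45 SE). Bub1b lay at 9.24, 7.45, 7.33, 6.39 and 3.43 CPM in Yap deleted libraries, against 10.1, 11.2, 6.19 and 6.41 CPM in controls (log2 fold change −0.31 ± 0.30 SE). Sapcd2 lay at 5.3, 3.55, 4.96, 5 and 1.31 CPM in Yap deleted libraries, against 4.59, 4.32, 4.94 and 1.34 CPM in controls (log2 fold change 0.10 ± 0.47 SE). These 3 showed no separation of the groups. The remaining 15 mitotic genes ran from −1.34 (Cenpf) to 0.45 (Bub1) on the log2 scale, with adjusted p of 0.493 to 0.993.

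The direction of both classes in this line was not stable. With limma-voom and quality weights on all libraries, the mitotic median was 0.027 and the replication median 0.13. Controls 1 and 2 held 315 and 241 CPM of the endothelial gene Pecam1, against 2.09 to 10.7 CPM in Yap deleted libraries and 5.51 and 12.7 CPM in controls 3 and 4. Endothelial markers (10 of 10 in the table) summed to 154 to 250 CPM in Yap deleted cells and to 251 to 2294 CPM in controls, and 7 lymphocyte markers to 0.378 to 3.90 CPM and 1.02 to 204 CPM in the same order. Neutrophil markers were lower in 6 of 6 cases (median log2 fold change −5.22) and macrophage markers in 9 of 9 (median −2.43), none called. None of these markers was at 0 throughout a group, and their part in the mitotic values was not tested. Without controls 1 and 2 the mitotic median was 0.91 and the replication median 0.27, both higher in Yap deleted cells, with Mki67 at 0.95 and no member called. Without control 2 alone, which ran against its label, the mitotic median was −0.01 and the replication median 0.26. In the deposited table controls 1 and 2 fill the last columns, after all other libraries of the line.

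The difference between the lines asks whether the change with Yap active departs from the change with Yap deleted. It was taken as the log2 fold change of the Yap active line minus that of the Yap deleted line, over all 19 libraries in one model. It was positive for 11 of 11 replication genes (median 1.0) and 23 of 24 mitotic genes (median 1.16), beside a median of 0.02 over 16308 genes. No member passed the test, as 0% of genes did, and 5 of 35 (14.3%) had an unadjusted p under 0.05, against 6.47% of all genes. These were Mcm6 (0.86 ± 0.35 SE), Ccne2 (1.0 ± 0.43 SE), Mcm2 (1.09 ± 0.49 SE), Mcm3 (1.38 ± 0.65 SE) and Hjurp (0.86 ± 0.36 SE), with adjusted p of 0.732 to 0.763. Mki67 (1.91 ± 1.05 SE) and Bub1b (0.97 ± 0.52 SE) followed among mitotic genes, and Bub1 (−0.14 ± 0.46 SE) was the exception in sign. Without Yap active 1, Yap active control 2 and Yap deleted controls 1 and 2, the mitotic median was −0.41 and the replication median 0.47. The replication median thus kept its sign and the mitotic median did not.

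Most further replication and mitotic genes, not among the 35, were also higher in Yap active cells. Of 36 other replication genes, 36 were higher in Yap active cells (median log2 fold change 0.76, 10 at an unadjusted p under 0.05), and of 56 other mitotic genes 54 (median 0.64, none). Of all genes tested, 49.4% were higher and 12.6% had an unadjusted p under 0.05. None of the listed genes was called. They were measured in the same libraries as the 35, so they are not independent support. Values without the doubted libraries are not given for these lists. Chaf1a, which assembles chromatin behind the fork (0.90 ± 0.28 SE), and the polymerase subunit Pola2 (0.78 ± 0.29 SE) led the replication list. Stil (0.66 ± 0.33 SE), of centriole duplication, and Lmnb1 (0.55 ± 0.29 SE), lamin B1, led the mitotic one. In Yap deleted cells 11 of 36 replication genes (median −0.13) and 10 of 56 mitotic genes (median −0.32) were higher, beside 51.0% of all genes. None of them was called. Smc4 (−0.89 ± 0.29 SE), a condensin subunit, and Hmgb2 (−0.99 ± 0.33 SE), a chromatin protein, had the smallest p of the mitotic list, and Pold1 (0.34 ± 0.15 SE) and Gins3 (−0.70 ± 0.33 SE) of the replication list. For the difference between lines the leading genes were Chaf1a (0.99 ± 0.32 SE), Gmnn (1.72 ± 0.57 SE), Smc4 (0.87 ± 0.34 SE) and Incenp (1.08 ± 0.47 SE). The difference was positive for 36 of 36 replication and 55 of 56 mitotic genes, beside 52.3% of all genes.

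Regulators of the cycle had smaller medians. Of 20 transcription factors of the cycle, 16 were higher in Yap active cells (median 0.23) and 7 in Yap deleted cells (median −0.12), with none called in either. E2f1, an activator of S-phase genes, lay at 20.6, 26.5 and 39.4 CPM in Yap active cells, against 17.2, 7.94, 9.53 and 22.9 CPM in controls (log2 fold change 0.99 ± 0.32 SE), and Mycl had 0.59 ± 0.13 SE. E2f1 lay at 14.1, 8.62, 8.91, 7.24 and 3.69 CPM in Yap deleted libraries, against 10.1, 18.1, 16.7 and 6.57 CPM in controls, and its difference between lines was 1.57 ± 0.53 SE. Lin9 (−0.59 ± 0.28 SE), of the MuvB complex, and Tfdp2 (−0.30 ± 0.17 SE), an E2F partner, had the smallest p of this list with Yap deleted. Cyclin D1, Ccnd1, lay at 252, 367 and 448 CPM in Yap active cells, against 206, 210, 239 and 237 CPM in controls (log2 fold change 0.71 ± 0.17 SE, unadjusted p = 0.0014, adjusted p = 0.366). Groups did not overlap, in either direction, for 0.931% of all genes, among them Mycl (lowest 32.1 CPM with Yap active, highest control 29.2 CPM). For Ccnd1, too, every Yap active library lay above every control. It was the member of the 7 G1 cyclins and kinases with the smallest p in both lines (0.50 ± 0.27 SE with Yap deleted), followed by Ccnd3 (0.54 ± 0.23 SE) with Yap active and Cdk2 (−0.22 ± 0.14 SE) with Yap deleted. Between lines, Cdk2 (0.34 ± 0.16 SE) and Cdc25a (0.47 ± 0.24 SE) came first, and none of the 7 was called.

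Brakes of the cycle included the gene with the largest fold change of these cell cycle lists in each line. Cdkn1a, the p53-induced inhibitor p21, lay at 62.2, 521 and 636 CPM in Yap active cells, against 57.4, 312, 50.9 and 69 CPM in controls 1 to 4 (log2 fold change 1.88 ± 0.70 SE, adjusted p = 0.366). In Yap deleted libraries it lay at 792, 606, 451, 470 and 336 CPM, against 49.4, 237, 98.9 and 93.5 CPM in controls (log2 fold change 2.16 ± 0.45 SE, adjusted p = 0.247), with no overlap of the groups, as for 3.7% of all genes in either direction. It was 237 CPM or more in every library with a high Esr1 level, Yap active control 2 and Yap deleted control 2 included, and 98.9 CPM or less in the others, Yap active 1 included. Ccng1, another p53 target, had 0.77 ± 0.37 SE with Yap active and 1.35 ± 0.29 SE with Yap deleted. In the Yap deleted line the groups did not overlap for Ccng1 either, nor for Cdkn1b, which was lower. Trp53 itself had 0.38 ± 0.17 SE with Yap active. Of 17 brakes measured, 9 were higher in Yap active and 6 in Yap deleted cells (medians 0.02 and −0.24), and Rbl1 (0.95 ± 0.40 SE) and Trp53 (0.52 ± 0.24 SE) led the difference between lines. None was called.

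Chromatin near the division genes was opened with Yap active about as often as near other genes. Of the 35 members, 8 (22.9%) had a region of the authors' list of opened chromatin (6017 regions) with the annotated start within 50 kb, beside 23.4% of the 15685 genes tested. Such regions overlapped the promoter windows of 4 members (Ccnb1, Cenpe, Hjurp and Mcm5) of the 28 known, beside 9.98% of all genes with a promoter. The Ccnb1 region (chr13:100786006-100787762, mm10) and the Cenpe region (chr3:135211490-135213160) covered the whole stretches printed above, which hold CCAAT boxes and no CHR element. The Mcm5 region (chr8:75108459-75110173) covered its E2F site and CCAAT box. That annotated to Hjurp by the authors (chr1:88276517-88280150) had the highest score of the list, a score whose scale is not given and which serves for ranks only. The transcript through which the authors tie it to Hjurp was not found in the RefSeq annotation used here. The region does overlap the RefSeq promoter window of Hjurp, which held a CCAAT box. That window also held a CHR element, but only with the 50 bases after the start included. The regions over the other promoters ranked 445 (Cenpe), 695 (Mcm5) and 928 (Ccnb1) of 6017. Iqgap3 had a region in its first intron 0.7 kb past the start (chr3:88082316-88083238), and Cdk1, Mki67 and Rrm2 had intergenic regions 45.9, 19.8 and 11.2 kb before theirs.

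The authors' peak lists for this line were set beside these regions. Per the labels, 1 list for Yap active cells names ATAC libraries 2 and 3 and the other library 1. All 8 opened regions overlapped a peak of the list for libraries 2 and 3, 5 of 8 overlapped one of the list for library 1, and 0 of 8 one of either control list. Peak folds given by the authors were 1.56 to 3.38, with −log10 q values of at most 0.805, so no q was under 0.05. The peak lists and the region lists come from the same ATAC samples, so their overlap is not independent support. The peak lists are also named as up in each group. The 0 of 8 may thus follow from how they were made, and does not show closed chromatin in controls. Of the 1392 regions closed with Yap active, 2 members had one within 50 kb (5.71% of members, beside 4.37% of tested genes): Ccne1, in intron 4 of 11 (chr7:38105364-38105864) and 12.7 kb before the start, and Cdk1, 48.9 kb past it. Regions annotated to Cenpf and Mki67 lay farther away, at 106.7 and 80.3 kb. With Yap deleted, 1 opened region of 532 was annotated to a member, 18 kb past the start of Cdk1 (chr10:69333962-69335767). That is 2.86% of members, beside 1.73% of tested genes with one within 50 kb. No closed region was annotated to a member, beside 1.94% of tested genes with one within 50 kb.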

How the data were processed

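RNA was measured in 19 libraries and open chromatin in 9 samples of EPCAM+ mouse lung cells. The deposited gene tables hold raw counts, as their whole values show. The submitters' processing notes name Trim Galore, Bowtie2, Cufflinks, DESeq, HOMER and build mm10, and the counting tool is not named in the sources used here. The region lists give a score per region, and the peak lists a fold (ratio) and a −log10 q per peak, all the authors' own values per the file headers. Each line was tested with the edgeR 4.0.16 quasi-likelihood test (R 4.3.3, TMM, filterByExpr), and the lines against each other in one model, with Benjamini-Hochberg adjustment over all genes tested and calls at an adjusted p under 0.05. The SE of a log2 fold change was derived from that test, as its absolute value divided by the square root of the F statistic. The fits were run on simulated counts with known fold changes. There every gene had the same spread and no library ran against its label. How the fits behave with the spread seen here was not tested. Totals were 31.9 M to 43.5 M counts, and the lowest member level was 4 counts, where counting error is large. The members and gene lists were chosen with earlier results of these data known. From those results 5 mitotic members (Pbk, Iqgap3, Mxd3, Sapcd2 and Hjurp) may have been picked. Without these 5, the mitotic median was 0.65 with Yap active, −0.54 with Yap deleted and 1.18 for the difference. Genes described library by library were the 3 with the smallest p in each class and comparison plus a set of classic division genes, and of each further list the 2 with the smallest p. Regions were matched to members by the authors' annotation within 50 kb, and to peaks by an overlap of 1 base with bedtools 2.31.1. Promoters were searched in Python 3.11.15. Alternatives were another scaling, no filter, DESeq2 1.42.0, limma 3.58.1 with voom weights, a replicate block, each library left out, the doubted libraries left out, and, chosen after seeing the data, the column position as a covariate.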

Additional observations from a re-analysis of the deposited data

Results flagged for a closer look

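Within groups of 4 to 6 libraries, 12 of 152 sets of values had 1 library far from the rest. Of these, 10 were Yap active library 6, the highest of its group, at 62.0 CPM for Rrm2, 264 CPM for Mki67, 121 CPM for Top2a, 48.0 CPM for Ccna2, 29.0 CPM for Ccnb2, 55.4 CPM for Cdk1, 20.1 CPM for Bub1, 36.1 CPM for Pbk, 36.0 CPM for Kif11 and 1055 CPM for the mitotic sum. Pcna stood apart in Yap active control 4, at 115 CPM. The replication sum stood apart in Yap deleted control 2, at 245 CPM. The sets share their libraries, and the class sums are made from the members, so the 12 are not separate events. Chance gives about 1 in 20 for independent sets, and that rate cannot be applied here.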

How the results depend on the processing

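Counts of called genes depended on the tool. DESeq2 called 18 genes with Yap active, 792 with Yap deleted (1 member, Hjurp) and 17 for the difference, and limma-voom with quality weights 8845 (31 members), 0 and 21. Without Yap active 1 and control 2, 13 genes were called with Yap active, none a member, and 4 with the column position added, where the mitotic median turned to −0.41. Same-numbered samples did not all deviate together (correlations 0.515, 0.0052, 0.054 and 0.480 for numbers 1 to 4 of the Yap active line, and −0.254, 0.434, 0.271 and 0.282 of the Yap deleted line), so the numbers were not taken as pairs. Numbers 2, 3 and 4 of the Yap deleted line and 4 of the Yap active line correlated best with their own number. With a replicate block the Yap deleted medians were 0.18 for replication and 0.13 for mitotic genes, with 0 genes called. With limma-voom they were 0.13 and 0.027, and without deleted controls 1 and 2 they were 0.27 and 0.91. Without 4 doubted libraries the mitotic difference was −0.41. Leaving out each library in turn, the medians ran from 0.68 to 1.52 (replication) and 0.36 to 1.64 (mitotic) with Yap active, from −0.22 to 0.26 and −0.83 to −0.01 with Yap deleted, and from 0.69 to 1.31 and 0.72 to 2.26 for the difference, with 0 members and 0 to 2, 0 to 4 and 0 to 3 genes called. The Yap deleted replication median reversed to 0.26 without control 2 and to 0.0017 without Yap deleted 5. The log2 ratio of the mean replication sums with Yap deleted, 0.05, became −0.0062 with plain totals and −0.017 as mean log2 levels. Members with an opened region with Yap active numbered 5 within 1 kb (14.3%, beside 16.9% of tested genes). Among the higher-scoring 50% they numbered 5 (14.3%, beside 15.1%). Members with a closed region numbered 0 within 1 kb (beside 0.2%) and 4 at any distance (11.4%, beside 5.62%). Among the higher-scoring 50% there was 1 (2.86%, beside 2.4%). Opened regions with Yap deleted gave 0 members within 1 kb (beside 0.44%). CHR elements were in 8 mitotic promoters in the 250 bases before the start alone. The cause was not tested in any case. Depth limits the lowest members: 4 counts was the smallest value of a mitotic gene and 17 of a replication gene, so the widest fold ranges carry large counting error.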
